A study of Mus musculus with 6 samples.

Results

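Semaphorins, plexins and neuropilins are the ligands and receptors of one family of guidance cues, and their transcripts were followed in mouse cortex with and without stabilised β-catenin in excitatory neurons. The set was made of 31 named genes, 20 semaphorins (ligands) and 11 receptors (9 plexins and 2 neuropilins), out of 47794 genes in the deposited table. All 31 were found by symbol, and 31 had a mean of at least 10 scaled reads over both groups, so no member was lost to a filter on low values.

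The tissue was primary somatosensory cortex, taken for RNA-seq from C57BL/6 mice 14 days old. Both groups carried an allele of the β-catenin gene Ctnnb1 with loxP sites around exon 3 (β-cat lox(ex3)). The 3 control samples carried that allele alone, and the 3 overexpression samples also carried Nex-Cre, a recombinase expressed from the Neurod6 locus of forebrain excitatory neurons. Recombination removes exon 3, which encodes the sites that mark β-catenin for degradation. No group carried Nex-Cre without the floxed allele, so an effect of the Cre allele itself cannot be told apart from that of β-catenin. The labels number the samples of each group but do not say that they came from separate animals, so the spread between them may be technical in part.

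For each gene the files held 1 mean of scaled reads in each group, summing to 19016749 in control and 18602579 in overexpression cortex, with a p-value from the authors' own test. Neurod6 had a mean of 1942 in control and 1199 in overexpression cortex, and Ctnnb1 7574 and 6391, but a gene-level value of Ctnnb1 also counts the exons that remain and does not check the genotype. Markers of excitatory neurons were abundant, with Camk2a at 66769 and Slc17a7 at 31689 in control cortex, and no list of cell type markers held a gene listed at 0. Summed markers of excitatory neurons, the cells that Nex-Cre targets, differed by -5.58% between overexpression and control cortex (6 of 6 genes with a lower mean, or 5 of 6 with total scaling). Among them 1 gene, Neurod6, passed an unadjusted p of 0.05 by the authors' deposited table (p = 5.04e-05, adjusted p = 0.760). Summed markers of oligodendrocytes were 7.66% higher in overexpression cortex (5 of 5 genes with a higher mean), those of striatum 15.9% higher (5 of 5), and those of inhibitory neurons differed by -9.44% (6 of 6 with a lower mean, or 5 of 6 with total scaling). Sums of the other 8 lists differed by -44.9% (choroid plexus) to 5.46% (red blood cells). By the authors' deposited table, 0 genes of the oligodendrocyte, striatum and inhibitory neuron lists passed that p, against 0.534% of the 30152 tested genes. Lists of this size with 0 called genes are near that share. Means were higher in overexpression cortex for 42.2% of the 11645 genes at a mean of 100 or more. Whether shifts in the marker sums contribute to values of the guidance genes was not tested. In cortex as a whole, fewer cells of a type and less RNA per cell cannot be told apart.

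Semaphorins share an extracellular sema domain and act mostly through plexins, whose intracellular part inactivates small GTPases and loosens the actin and adhesion machinery of growth cones and dendrites. Secreted class 3 semaphorins usually bind a neuropilin, which holds them to a class A plexin, while Sema3e can bind Plxnd1 directly. Transmembrane semaphorins of classes 4, 5 and 6 and the membrane-anchored Sema7a bind plexins without a neuropilin. In cortex the family is known for steering axons during development and for shaping spines, synapses and myelin after birth.

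β-Catenin acts on genes through TCF and LEF factors, so the stretch before each start was searched for the letters these factors are known to favour. Upstream sequences of 250 bases were taken from RefSeq (GRCm38.p6) for 26 of the 31 members, with 37 start sites between them. Sema3b, Sema3f, Plxna1, Plxna4 and Sema6a had no entry. The motifs searched were CTTTGAA, the same with another ending as CTTTGAT, likewise the form CTTTGTA, and last the form CTTTGTT. Both strands were searched, and on 1 strand these motifs cannot overlap each other. Of the 26 members 4 held a match (15.4%), namely Nrp2, Sema3d, Sema3e and Sema6d, against 16.8% of 27025 genes in the same table. Counted over start sites the shares were 10.8% of 37 and 14.8% of 32851. The first 3 matches are shown because library values exist for these genes, and Sema3a, which held no match, because it had the smallest p of the family. All 4 genes lie on the plus strand, each line reads 5′ to 3′ up to the base before the start, and capitals mark the match.

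Nrp2, chr1:62703067-62703316: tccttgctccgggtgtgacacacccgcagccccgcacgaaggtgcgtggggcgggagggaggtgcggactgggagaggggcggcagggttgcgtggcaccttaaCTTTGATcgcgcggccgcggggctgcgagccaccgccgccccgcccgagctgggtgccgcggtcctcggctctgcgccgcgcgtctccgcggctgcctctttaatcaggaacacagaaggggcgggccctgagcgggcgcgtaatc
Sema3d, chr5:12382916-12383165: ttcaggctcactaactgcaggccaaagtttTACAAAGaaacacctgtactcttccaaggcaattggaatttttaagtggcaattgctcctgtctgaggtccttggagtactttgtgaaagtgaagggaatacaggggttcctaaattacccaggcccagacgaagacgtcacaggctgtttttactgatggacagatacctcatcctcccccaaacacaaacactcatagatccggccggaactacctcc
Sema3e, chr5:14025026-14025275: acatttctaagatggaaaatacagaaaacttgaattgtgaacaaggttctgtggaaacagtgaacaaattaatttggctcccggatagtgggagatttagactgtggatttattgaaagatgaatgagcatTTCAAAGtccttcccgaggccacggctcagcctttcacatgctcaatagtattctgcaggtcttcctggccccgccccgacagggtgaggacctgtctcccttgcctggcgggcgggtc
Sema3a, chr5:13396534-13396783: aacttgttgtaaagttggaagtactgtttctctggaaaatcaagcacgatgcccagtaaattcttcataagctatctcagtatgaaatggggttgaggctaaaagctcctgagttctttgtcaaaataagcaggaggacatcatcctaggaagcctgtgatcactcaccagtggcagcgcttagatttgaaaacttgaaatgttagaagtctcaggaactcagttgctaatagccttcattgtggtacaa

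The match before Nrp2 was CTTTGAT on the plus strand, 140 to 146 bases before the start. Those before Sema3d and Sema3e read on the minus strand, CTTTGTA at 214 to 220 and CTTTGAA at 113 to 119 bases before the start. A match describes letters in this window and is not a measured site.

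No member passed the threshold. The authors' deposited table gave 0 of 31 members an adjusted p under 0.05, against 0% of all 30152 tested genes. It gave 0 of 31 an unadjusted p under 0.05, against 0.534% of those genes. Both counts are near the background and are no result about the members. Sema3a had the smallest unadjusted p by the authors' deposited table, 0.0575, and the adjusted p of every member was 1. Group means of the members were 1.18-fold apart at most and 1.05-fold at the median. Means were 1.1-fold or more apart for 4 of 31 members, Sema3a and Sema3b with lower and Sema5b and Plxnb3 with higher means in overexpression cortex, against 31% of 17095 genes whose mean reached 10 scaled reads. Among the 29 members whose mean reached 100, which leaves out Sema3b and Sema3g, the count was 3, against 16.5% of 11645 such genes. A difference of 1.2-fold or more was found for 0 of 31 members, against 13% and 2.68% of genes at those minimum means.

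**Figure D1:**
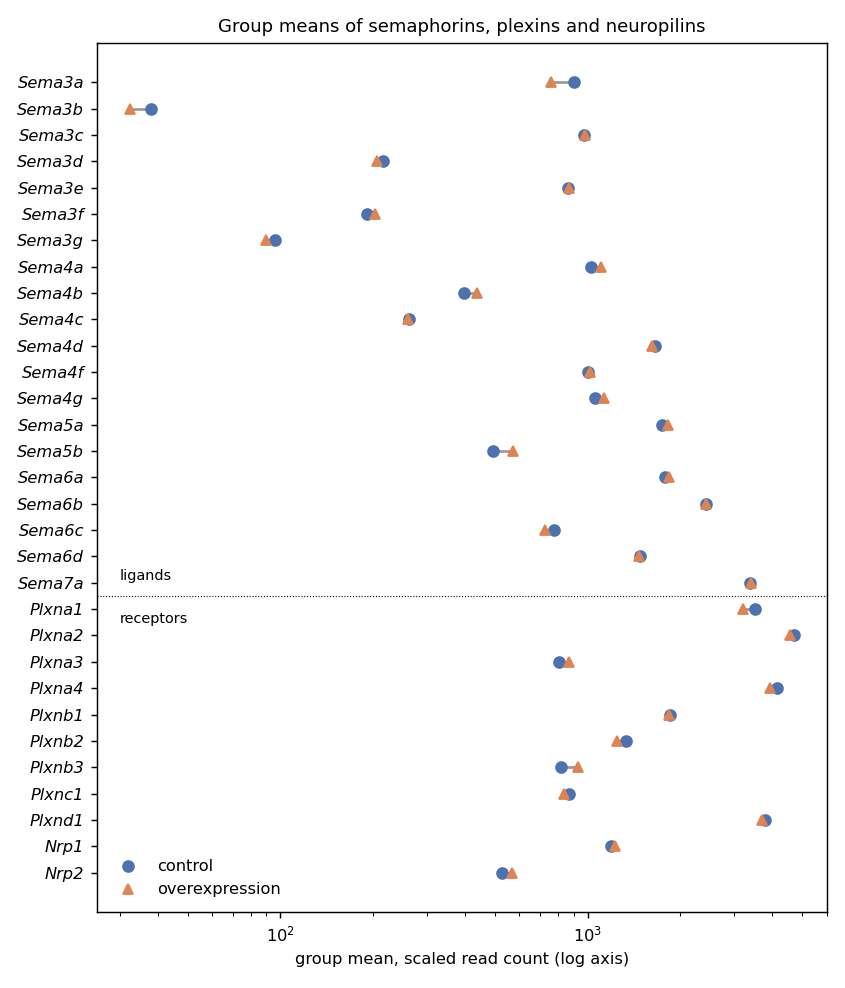
Mean scaled read count of each gene in control (circles) and overexpression cortex (triangles), on a log axis, with a line joining the pair and ligands above the dotted line. Pairs nearly coincide over a range from 37.8 for Sema3b to 4708 for Plxna2 in control cortex, and the widest gap is that of Sema3a.

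Levels of different genes were compared per kilobase of merged exon length from GENCODE M21, as scaled reads per kilobase. Sema7a, a membrane-anchored semaphorin that also binds integrins, had the highest level of the family, 1023 in control and 1035 in overexpression cortex. Sema6b, a transmembrane ligand of class A plexins, followed at 611 and 612, and Plxnd1, the receptor of Sema3e, at 519 and 506. Plxna1 (388 and 355), Plxna4 (292 and 279) and Plxna2 (274 and 266) came next. These 3 class A plexins are the signalling partners of neuropilins and of class 6 semaphorins. Nrp1, the neuropilin through which Sema3a signals, stood at 122 in control cortex and Nrp2, the one favoured by Sema3f, at 44.5. The lowest levels were those of 4 secreted ligands, Sema3f (36.8), Sema3d (25.1), Sema3g (21.1) and Sema3b (7.91). With the longest protein-coding transcript as the length, the top 3 and bottom 4 kept their places, while Nrp1 moved from place 18 to place 7 and Sema3a from place 25 to place 19. Neighbours in the middle of this order were close, as with Plxnc1 at 104 and Plxna3 at 103, whose counts varied by 10.7% and 15.4% (SD as a share of the mean) among the control libraries described further on.

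**Figure D2:**
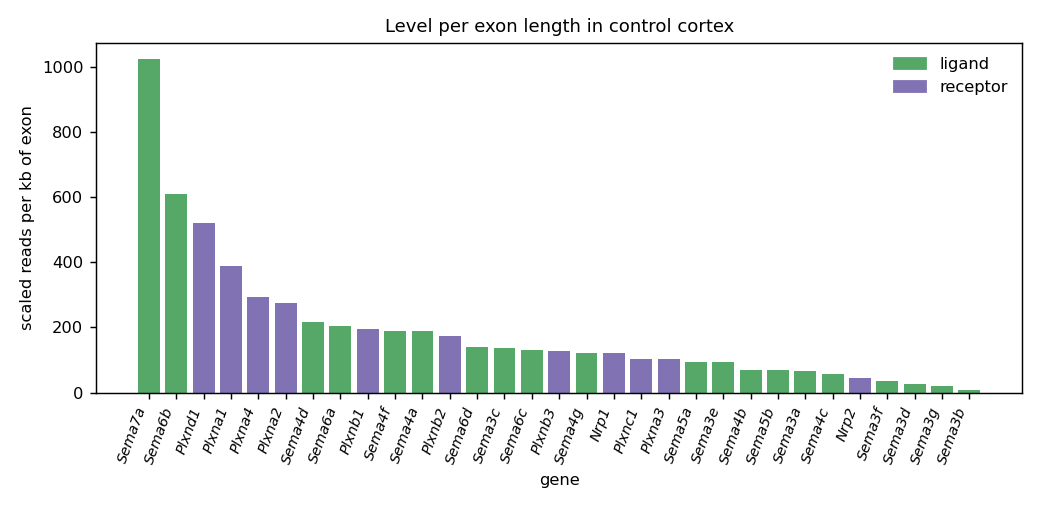
Scaled reads per kilobase of merged exon in control cortex for each gene, ligands in green and receptors in purple, in order of level. Sema7a stands highest at 1023 and Sema3b lowest at 7.91, with ligands at both ends of the order.

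Ligands and receptors kept nearly the same balance in both groups. Summed scaled reads of the 20 ligands were 20784 in control and 21021 in overexpression cortex, 1.14% higher, and those of the 11 receptors 23529 and 22927, a difference of -2.56%. The ratio of ligand to receptor reads was 0.883 in control and 0.917 in overexpression cortex. Without the most abundant gene on each side it was 0.925 and 0.959. These reads are not divided by length, so only the change of the ratio between groups is read. Per kilobase of merged exon the larger sum was that of the ligands. It was 3504 in control and 3549 in overexpression cortex, against 2338 and 2286 for receptors. The median log2 fold change, overexpression over control, was 0.006 for ligands, with 12 higher and 8 lower means, and -0.035 for receptors, with 4 higher and 7 lower. Over all 31 members it was 0.002, against -0.0175 over the 11645 genes at a mean of 100 or more. Means were higher in overexpression cortex for 51.6% of members and 42.2% of those genes. The split moved with the scaling. When each group was divided by its sum over all genes, which shifts log2 fold changes by 0.0318, 20 members had higher and 11 lower means. Centred on the median of those 11645 genes, 19 had higher and 12 lower means. The counts of higher and lower genes therefore give no direction for the family.

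**Figure D3:**
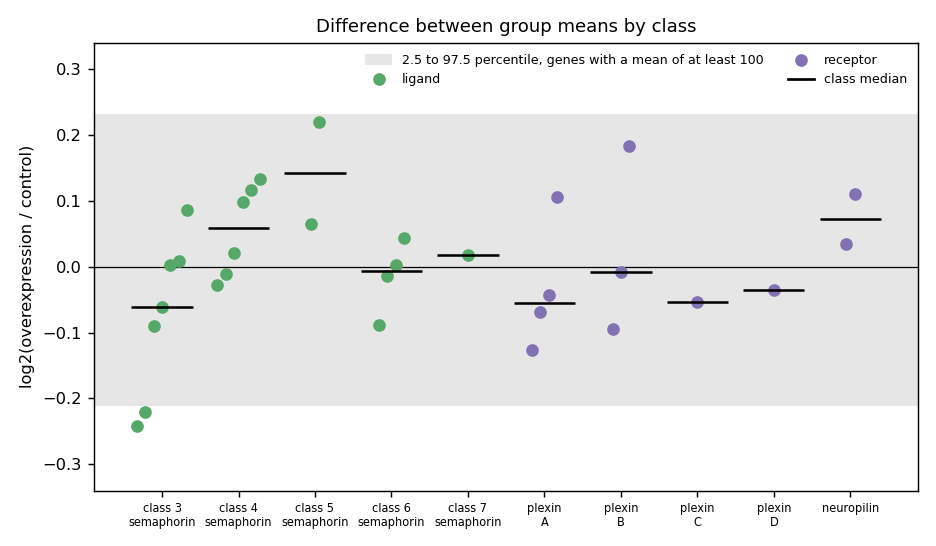
Log2 ratio of overexpression to control means for each gene by class, with class medians as black lines and the middle 95% of the 11645 genes whose mean reached 100 shaded (-0.21 to 0.23). Sema3a and Sema3b lie just below the shaded range and Sema5b just inside its upper edge.

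Class 3 semaphorins are secreted, and 3 had higher and 4 lower means in overexpression cortex, with a median log2 fold change of -0.061. Sema3a, a repellent for many cortical axons that also attracts apical dendrites, had group means of 900 in control and 762 in overexpression cortex, a log2 fold change of -0.24 (p = 0.0575 by the authors' deposited table). Sema3b, a ligand of Nrp1 and Nrp2, had means of 37.8 and 32.4, a log2 fold change of -0.22. The other class 3 genes lay closer to 0. Sema3c, known in axon guidance and vessel growth, was at 976 and 978. Sema3e, the ligand of Plxnd1, was at 866 and 871. Sema3f, which limits dendritic spines through Nrp2 and Plxna3, was at 191 and 203. Sema3d was at 216 and 207, and Sema3g, known from vessel cells, at 95.7 and 89.9.

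Among membrane-bound semaphorins, 9 of 13 had higher means in overexpression cortex, and this count was 12 with total scaling and 11 after centring. Of the 11645 genes at a mean of 100 or more, 42.2% had higher means, with a median log2 fold change of -0.0175. Total scaling adds 0.0318 to every gene, so most of those genes then have higher means too. No direction is read from the counts. Of the class 4 genes, Sema4a (1024 and 1110 in control and overexpression cortex), Sema4b (397 and 435) and Sema4g (1059 and 1133) had log2 fold changes of 0.12, 0.13 and 0.10. Sema4f had means of 1005 and 1020. Sema4c, a ligand of Plxnb2, was at 263 and 261, and Sema4d, the ligand of Plxnb1 and a product of oligodendrocytes, at 1658 and 1626. Class 5 semaphorins carry thrombospondin repeats beside the sema domain. Sema5a, known as a negative regulator of synapse number, was at 1752 and 1833, and Sema5b, known for synapse elimination, at 493 and 574. The log2 fold change of Sema5b was 0.22, the highest of the family, with p = 0.100 in the authors' deposited table. Class 6 semaphorins can act as ligands and as receptors. Sema6a was at 1791 and 1845, Sema6b at 2424 and 2428, Sema6c at 775 and 729 and Sema6d at 1485 and 1470, with log2 fold changes from -0.09 to 0.04. Sema7a was at 3374 and 3415, a log2 fold change of 0.02.

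Of the 9 plexins, 7 had lower means in overexpression cortex, and 6 did with either other scaling. Before rescaling, lower means were also the more common ones among the 11645 genes at a mean of 100 or more, of which 42.2% had higher means. Plxna1, Plxna2 and Plxna4 were at 3509, 4708 and 4122 in control and at 3213, 4568 and 3931 in overexpression cortex, log2 fold changes of -0.13, -0.04 and -0.07. Plxna3, which with Nrp2 forms the receptor for Sema3f, went the other way, from 808 in control to 869 (0.11). Plxnb1, the receptor of Sema4d, was at 1856 and 1847, and Plxnb2, which binds Sema4c and Sema4g, at 1330 and 1245. Plxnb3, a receptor of Sema5a known from oligodendrocytes, was at 818 and 929, a log2 fold change of 0.18 with p = 0.231 in the authors' deposited table. It stood beside summed oligodendrocyte markers that were 7.66% higher, and their part in the difference was not tested. Plxnc1, a receptor of Sema7a, was at 869 and 837 and Plxnd1 at 3787 and 3695. Nrp1 was at 1196 and 1225 and Nrp2 at 527 and 569. The smallest p of any receptor was that of Plxnb3.

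Known partners are set side by side here, and no test was made of a pair or trio. For Sema3e and Plxnd1 the log2 fold changes were 0.01 and -0.04. For Sema4d and Plxnb1 they were -0.03 and -0.01, and for Sema7a and Plxnc1 0.02 and -0.05. Sema3f, Nrp2 and Plxna3 had 0.09, 0.11 and 0.11, all with higher means in overexpression cortex, where the authors' deposited table listed p-values of 0.640, 0.813 and 0.557. Sema3a, Nrp1 and Plxna1 had -0.24, 0.03 and -0.13. None of these partner sets held a gene past the threshold.

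The group means alone give no spread, but whole reads of each library could be worked out for part of the genes. A group mean is a sum of whole reads from 3 libraries, each worth a fixed step, and 10 printed digits often leave 1 possible combination. Within a group the libraries take the letters A to C by falling scaling factor and cannot be tied to the replicate numbers. Control libraries were recovered for 15 members, and both groups for 9, of which Sema3e, Sema4b and Sema5b had several possible combinations in overexpression cortex and were settled by taking the one with all libraries within 1.5-fold of the mean. The other 16 members, all with a control mean above 1000, have no library value. Because the recovery favours genes with fewer reads, the 9 genes are 8 ligands and Nrp2.

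For the 15 members with control libraries, differences between group means were mostly smaller than the spread within the control group. For 14 of the 15 members the highest control library exceeded the lowest by a larger factor than separated the group means. That factor ranged from 1.03 for Sema3f to 1.93 for Nrp2, with a median of 1.29, while the group means of no member were more than 1.18-fold apart. Only for Sema3f was the spread in control smaller than the difference, and its overexpression libraries overlapped the control libraries. A range over single libraries is usually wider than a ratio of group means. The share of all genes with such a spread was not computed, so the count of 14 is no result about the members.

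Sema5b had 439, 537 and 503 scaled reads in control libraries A, B and C and 585, 542 and 595 in overexpression libraries. Every overexpression value was above every control value, with means of 493 ± 49.7 (SD, n = 3) and 574 ± 28.1 (SD, n = 3). With limma on log2 of the library value plus 1, the log2 fold change was 0.22 (95% interval 0.01 to 0.44), with an unadjusted p of 0.0447 and an adjusted p of 1. Of the 9 members 1 thus had groups that did not overlap, against 6.94% of the 11572 genes with library values, or 4.17% with overexpression on top. The same 1 of 9 had an unadjusted limma p under 0.05, against 2.06% of those genes, or 1.38% with a higher mean in overexpression cortex. Of the 6 members with a single combination in both groups, 0 did, against 2.13% of 10232 genes, or 1.44% with a higher mean. Leaving out 1 library at a time gave log2 fold changes from 0.14, with control A left out, to 0.29, with control B left out. The unadjusted limma p was 0.0238 and 0.0292 with control B or overexpression B left out, and 0.194, 0.0638, 0.107 and 0.116 with control A, control C, overexpression A or overexpression C left out. A second combination, 337, 551 and 835, also gave the overexpression mean, and with it the groups overlapped. The overexpression SD, the lack of overlap and the limma p of Sema5b thus rest on the 1.5-fold rule, which favours a small spread.

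Sema3a had 1013, 908 and 780 scaled reads in control libraries A, B and C, 900 ± 117 (SD, n = 3). Its overexpression mean of 762 allowed 2 combinations, 760, 705 and 819 or 512, 713 and 1060. In either case at least 1 overexpression library exceeded the lowest control library, so the groups overlapped.

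Nrp2 varied most of all recovered members. It had 594, 650 and 337 scaled reads in control libraries A, B and C and 387, 736 and 585 in overexpression libraries. One library of each group was low, control C and overexpression A, and the groups overlapped. The means were 527 ± 167 (SD, n = 3) and 569 ± 175 (SD, n = 3), and limma gave a log2 fold change of 0.12 (95% interval -0.41 to 0.65, adjusted p = 1). It was -0.175 without control C, 0.232 and 0.297 without control A and B, and 0.371, -0.092 and 0.074 without overexpression A, B and C, so single libraries set its sign.

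Sema3d had 234, 204 and 210 scaled reads in control A, B and C, and 229, 147 and 245 in the overexpression libraries. Only overexpression B stood apart, and without it the limma log2 fold change was 0.136 in place of -0.093. Sema3g had control values of 120, 82.1 and 84.9 and overexpression values of 75.0, 80.9 and 114, where 1 library of each group was high. Its limma log2 fold change of -0.092 was 0.082 without control A, -0.190 and -0.166 without control B and C, and 0.026, -0.029 and -0.272 without overexpression A, B and C.

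The remaining recovered ligands overlapped between groups as well. Sema3b had control values of 32.6, 42.1 and 38.6 and overexpression values of 30.1, 32.9 and 34.1, a limma log2 fold change of -0.21 (95% interval -0.70 to 0.28). With control A left out it was -0.308, and with control B left out -0.128. Sema3f had control values of 193, 193 and 187 and overexpression values of 186, 223 and 201. Its interval ran from -0.19 to 0.35, around a limma log2 fold change of 0.08 that was 0.144 with overexpression A left out and 0.013 with overexpression B left out. Over the 9 members the median half-width of the 95% interval, which is not adjusted for the number of genes, was 0.267 on the log2 scale. Smaller changes were thus mostly not detectable with these libraries even before adjustment. A call by adjusted p needs a larger change at the same spread. On simulated counts with a fixed spread, limma called 81% of the genes changed 2-fold. Sema4c had control values of 230, 288 and 270 and overexpression values of 242, 264 and 277. Sema4b had control values of 390, 375 and 426 and overexpression values of 407, 415 and 483, close to but not free of overlap. Sema3e had control values of 896, 940 and 762 and overexpression values of 793, 1037 and 784.

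**Figure D4:**
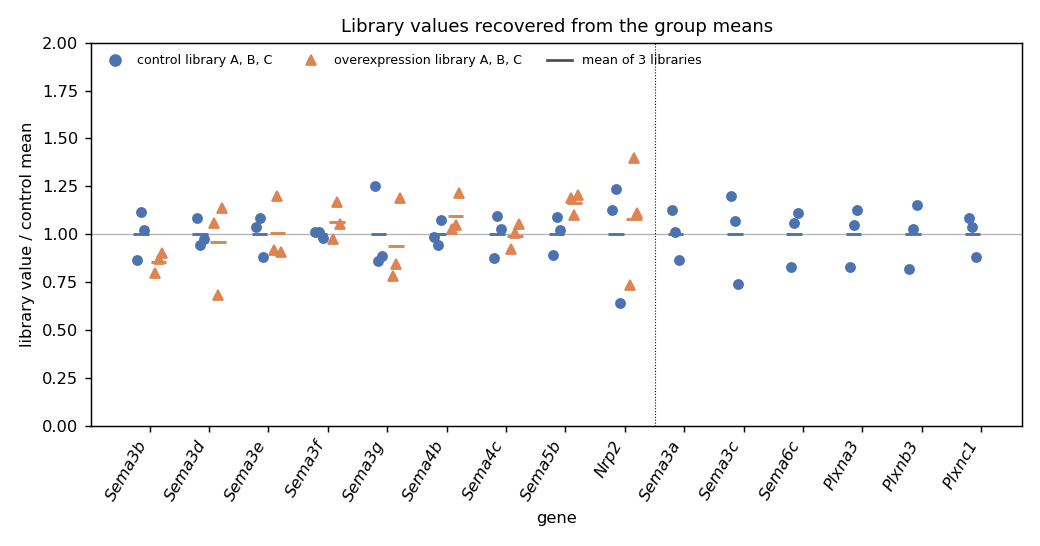
Library values recovered from the group means, each divided by the control mean of its gene, for control (circles) and overexpression libraries (triangles) in the order A, B, C, with group means as short lines. Genes right of the dotted line have control libraries only, Sema5b is the gene whose groups do not overlap, and Nrp2 has the widest spread.

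Control libraries differed among themselves in 2 opposite ways for the more abundant members, a grouping made after their values were seen. Sema6c (643, 822 and 859), Plxna3 (669, 846 and 910) and Plxnb3 (669, 840 and 944) were lowest in control A and highest in control C. Sema3a, Sema3c (1168, 1041 and 720) and Plxnc1 (942, 900 and 764) were highest in control A and lowest in control C. Control C was also the lowest for Sema3e and Nrp2. Over 7282 genes with a mean of at least 100, control A was highest for 32.2% and lowest for 33.8%, against 6 and 6 of 15 members. Control C was highest for 35.2% and lowest for 33.5% of those genes, against 4 and 6 of 15 members. These counts are near the background and are no result about the members. Of the 5 striatal markers 2 had control library values, Drd1 with 219, 292 and 353 and Drd2 with 51.9, 88.6 and 124 in A, B and C. Of the 6 inhibitory neuron markers 2 had them, Pvalb with 1000, 613 and 706 and Vip with 937, 701 and 662. Within other lists the order differed between genes. P2ry12 of microglia was at 879, 944 and 1010, but Tmem119 at 378, 327 and 326. Hba-a1 of red blood cells was at 861, 837 and 583, but Hba-a2 at 240, 255 and 433. The part of any cell type in the members' values was not tested.

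Overexpression values of 6 further members were not settled, but every possible combination could be compared with control. For Sema3a, Sema3c, Sema6c, Plxna3, Plxnb3 and Plxnc1 each combination overlapped the control libraries. For Plxnb3 the first combination was 696, 1366 and 724, another 1050, 895 and 841, and the last 1298, 887 and 601, against 669, 840 and 944 in control. Of the 15 members with possible combinations in both groups, 14 overlapped under every one, and the exception was Sema5b. The share of all genes scored this way was not computed. With settled values, groups did not overlap for 6.94% of 11572 genes, so most genes overlap and the count is no result about the members.

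Other genes of the pathway were followed on 3 lists made by role. Of 16 co-receptors and partners on the cell surface, 0 passed an adjusted or an unadjusted p of 0.05 by the authors' deposited table, against 0% and 0.534% of the 30152 tested genes, with 8 higher and 8 lower means and a median log2 fold change of -0.04. Nrcam, an adhesion molecule that joins neuropilin complexes, was at 8597 in control and 7632 in overexpression cortex (log2 fold change -0.17), and L1cam, which pairs with Nrp1, at 5324 and 5358. These shares are also the background of the counts that follow, and lists of this size with 0 called genes are near it. Met, a receptor kinase that can couple to class B plexins, was at 1152 and 1041. Among 5 vascular growth factors, some of which also bind neuropilins, 0 passed either threshold, and Vegfa was at 1358 and 1470 and Vegfb at 580 and 524. Of 32 intracellular genes, 0 passed either threshold, with 13 higher and 19 lower means, or 16 higher with either other scaling. Cfl1, the actin-severing cofilin, was at 16072 and 16208, Mical2, an actin-oxidising enzyme of the family that acts behind plexins, at 10134 and 9605, and Pak1, a kinase upstream of cofilin, at 7804 and 7096. Fer, a kinase, was at 399 and 341 (-0.23, p = 0.119 in the authors' deposited table), with library values of 404, 406 and 387 in control and 370, 286 and 366 in overexpression cortex. The groups did not overlap, as for 6.94% of the 11572 genes with library values, and since Fer was named for its fold change nothing is read from this.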

How the data were processed

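Total RNA of 6 cortex samples had been extracted with Trizol and made into Illumina TruSeq libraries, per the labels' protocols. The submitters' processing notes name Bowtie2 2.0.6 and TopHat2 2.0.9. The genome build, annotation, read counter, strand setting and statistical test were not given in the sources used here. Each signal value that the authors deposited is, as read from the values, a mean of scaled read counts over the libraries of a group. The authors also deposited p-values, raw and adjusted, used here as given, and a log2 fold change, which differed from log2 of the ratio of means by at most 4.99e-05.

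Symbols were found for 46488 of 47794 genes. Calls were the authors' adjusted p under 0.05. The members, lists and tests were chosen with earlier results of these data known. Named genes were all members, Ctnnb1 and Neurod6, and in each pathway list the 2 with the highest mean, the 2 with the largest fold change at a mean of at least 100 and any with p under 0.05. Single cell type markers printed with their values were picked from their lists after the values were seen. Genes in overlapping or antisense pairs could share reads, since strand use is not known.

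Library reads were recovered from means up to 1000 by searching whole-read combinations, all of them up to 100 and those within 2-fold of the mean above it. One combination was found for 99.87% of control means up to 450 and 99.72% of those from 450 to 1000, and for 99.39% and 15.93% of overexpression means. The scaling factors came out at 0.982, 0.926 and 0.907 for control and at 1.23, 1.06 and 0.966 for overexpression. On simulated means, 100% of single combinations were right, and 99.7% of the 330 overexpression means settled by the 1.5-fold rule. The simulation gave all genes the same spread between libraries, below that of Nrp2. It therefore cannot show how often the rule is right for genes with a wider spread. Where means of 300 to 1000 had 1 combination, 99.7% in control and 99.2% in overexpression cortex had all libraries within 1.5-fold. Control libraries of Nrp2 did not. With limma 3.58.1 (R 4.3.3), log2 of each library value plus 1 was modelled with a trend in the variance, over 10232 genes (11572 with the 1.5-fold rule) with a mean of at least 10, which understates changes of low genes. On simulated counts for this comparison over 10232 genes, with the same fixed spread, limma called 81% of 200 genes changed 2-fold and 0.0997% of the others. Alternatives were other scalings, pseudocounts of 1 and 5, minimum means and leaving out each library.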

Additional observations from a re-analysis of the deposited data

How the results depend on the processing

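No paired analysis was possible because the deposited columns are group means and recovered libraries carry no replicate numbers. The count of members past the threshold was 0 with the authors' adjusted and unadjusted p and over genes with a mean of at least 10. With limma, also without each library in turn, it was 0 of the 6 members with 1 combination and 0 of the 9 with the 1.5-fold rule, and the other members could not be tested that way. Scalings, pseudocounts and filters were varied, and a mean over genes was used in place of the median. The resulting log2 fold change of group means ran from 0.003 to 0.037 for ligands and from -0.035 to 0.000 for receptors. The only spread to set beside this is that of medians over the 15 members with control libraries, which are those with fewer reads. Its SD was 0.0640 for the ligands among them and 0.0681 for the receptors, which are only Plxna3, Plxnb3, Plxnc1 and Nrp2. The ligand to receptor ratio in overexpression over that in control cortex was 1.038, and 1.037 without the most abundant genes. On library values, medians were taken over members with 1 combination in both groups, whose ligands are Sema3b, Sema3d, Sema3f, Sema3g and Sema4c. The median of these ligands was -0.092, against 0.006 by group means over all 20 ligands, a different set of genes. By group means these ligands, except Sema3f, also had lower means in overexpression cortex. Without 1 library their median ran from -0.232 to 0.026, with a sign change without overexpression A. The sign of neither median is settled. Over the 6 members with 1 combination in both groups the median was -0.049 and ran from -0.142 to 0.036 without 1 library. Its sign changed without control A (0.024) and overexpression A (0.036). The 1.5-fold rule and the length alternative were chosen after seeing the data. Library reads were searched only for means up to 1000, so library values cover members with fewer reads. Spread of the most abundant plexins and of Sema7a was not measured.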
